A study of Homo sapiens with 8 samples.

Results

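The genes described here build, cross-link, contract or anchor the actin cytoskeleton, or carry the transcription factor SRF and its coactivators that regulate many such genes. They form a list of 56 named human genes. Of these, 50 were measured, out of 19775 genes read on the arrays: each was represented by the probe set annotated to that gene alone that had the highest mean signal over the 8 arrays. The other 6 (ACTG1, FLNA, FLNC, TPM3, FHL1 and WDR1) had no probe set annotated to them alone, and of these ACTG1 was read jointly with ACTB.

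Actin monomers polymerise into filaments that are held together by crosslinkers such as alpha-actinin and palladin, stabilised along their sides by tropomyosins and calponins, pulled by non-muscle myosin and tied to integrin adhesions by vinculin, talin and zyxin. SRF (serum response factor) binds a short DNA element called the CArG box in the promoters of many of these genes. Its coactivators MRTFA and MRTFB are held by free actin monomers and released when the monomers polymerise, which couples the state of the cytoskeleton to the transcription of its own components; a separate family of SRF partners, the ternary complex factors, serves immediate early genes such as EGR1.

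The study followed the response of MDA-MB-453, an established human breast cancer cell line that expresses the androgen receptor, to DHT (5-alpha-dihydrotestosterone), a potent androgen. All cells, controls included, were first kept for 3 days in a medium without phenol red that held 5% charcoal-stripped serum, which removes most steroid hormones. They then received vehicle, or DHT at 10 nM for 4 h, 16 h or 48 h. Each of the 4 groups had 2 arrays labelled as biological replicates (8 in all), and no label says how the replicate cultures were kept apart. The time at which vehicle cells were harvested is not given, so a DHT effect and a difference in time in culture cannot be told apart, and every comparison with vehicle shares the same 2 control arrays. All cells came from 1 line. Values are log2 signals, so a log2 change of -1 means that the signal was halved; differences were tested within a probe set only, since probe sets differ in how strongly they bind.

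On the 8 arrays the mean log2 signal was 12.8 to 13.1 for 10 luminal markers, 7.22 to 7.38 for 4 basal, 7.36 to 7.52 for 11 fibroblast, 7.87 to 8.10 for 6 smooth muscle and 7.29 to 7.40 for 6 immune and endothelial markers. These levels come from different probe sets with no detection call, so they describe the arrays and do not rank expression. None of the 11 fibroblast markers was called at 16 h or 48 h. Replicates correlated across genes with r of 0.995 to 0.997. Replicate 2 at 16 h stood apart in the array's own RNA quality controls: its 3′ minus 5′ difference was 1.52 log2 units for the ACTB controls, against 0.20 to 0.94 on the other 7 arrays, and 0.82 for the GAPDH controls, against 0.19 to 0.35. Values without that array are given after the comparisons between times, and for the pathway genes beside their counts.

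The CArG box was searched as CC, 6 bases that are A or T, then GG, which reads the same on both strands. The search covered the 250 bases before each start site in RefSeq promoter windows (GRCh38.p14). Of 56 listed genes 52 had windows there, and 12 of their 114 windows (10.5%), from 10 genes, held a CArG box, against 407 of 35116 windows (1.16%) over all genes. The genes had been listed partly as SRF targets, so this share is a description of the list. Of 47 windows of the members that were called lower at 16 h or 48 h, 6 (12.8%) held one, from ACTN1, TPM4, CNN2 and FHL2. Of 49 windows of the other measured members, 3 (6.12%) did, from TES, LPP and SRF. FHL2 gave 3 of those 6 windows, and its starts share a box. Counted by gene, 4 of 24 members called lower that had windows held a box, and 3 of 22 others did. The difference was not tested. The windows below belong to the genes whose signals fell and carry a box, to ACTG1, whose joint probe sets fell, and to SRF itself, which carries a pair of boxes. The CArG box is in capitals and each sequence runs 5′ to 3′ on the gene's strand.
ACTG1: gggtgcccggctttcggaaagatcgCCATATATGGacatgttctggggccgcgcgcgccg
ACTN1: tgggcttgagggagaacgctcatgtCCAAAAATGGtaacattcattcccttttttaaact
TPM4: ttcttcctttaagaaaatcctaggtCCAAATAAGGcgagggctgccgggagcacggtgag
CNN2: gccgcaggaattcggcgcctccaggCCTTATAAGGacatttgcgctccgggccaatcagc
FHL2, first window: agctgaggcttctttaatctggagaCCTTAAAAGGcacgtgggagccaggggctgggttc
FHL2, second window: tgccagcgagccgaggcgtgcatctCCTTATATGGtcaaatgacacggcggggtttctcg
SRF: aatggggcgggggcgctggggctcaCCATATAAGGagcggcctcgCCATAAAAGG

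The ACTG1 window lies at chr17:81512859-81512918 on the minus strand, with the box 94 bases before the start site. ACTN1 is at chr14:68977703-68977762 on the minus strand (171 bases before 1 of its starts) and TPM4 at chr19:16067340-16067399 on the plus strand (173 bases before 1 of its starts). ACTN1 had 4 windows and TPM4 had 3, and in each gene 1 window held a box. CNN2 is at chr19:1026494-1026553 on the plus strand (89 bases before its start). FHL2 has several starts: the first window is at chr2:105438580-105438639 (101 and 85 bases before 2 of them) and the second at chr2:105399076-105399135 (59 bases), both on the minus strand. The SRF window is at chr6:43171214-43171268 on the plus strand, with boxes 30 and 10 bases before 1 of its 2 starts. The androgen receptor half-site AGAACA was searched on both strands over the same 250 bases. It was in 9 of the 114 windows (7.89%), in 9.81% of the windows of genes read on the arrays and in 12.4% of all windows. A match to letters says nothing of binding in these cells, and no match says only that the letters are not in the window.

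Many of the actin cytoskeleton genes fell by 16 h of DHT, and 17 of them were called lower at both 16 h and 48 h, among them palladin, vinculin, zyxin, the heavy chain of myosin IIA and the tropomyosin TPM4. At 4 h none of the 50 measured genes was called in either direction by limma (Benjamini-Hochberg adjusted p below 0.05, over all genes read), where 0.106% of all genes were called higher and 0.0708% lower; 4 had an unadjusted p below 0.05. At 16 h 20 of 50 (40.0%) were called lower and none higher, against 4.3% lower and 2.55% higher over all genes. At 48 h 22 of 50 (44.0%) were called lower and 1, TES, higher, against 6.38% and 3.13%. The members were chosen with earlier results of these data known, so these shares describe the list and are no independent test of it. The members are brighter than most genes, and among the 3498 genes at or above the members' median signal 0.0858% were called lower at 4 h, 8.26% at 16 h and 12.3% at 48 h.

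**Figure D1:**
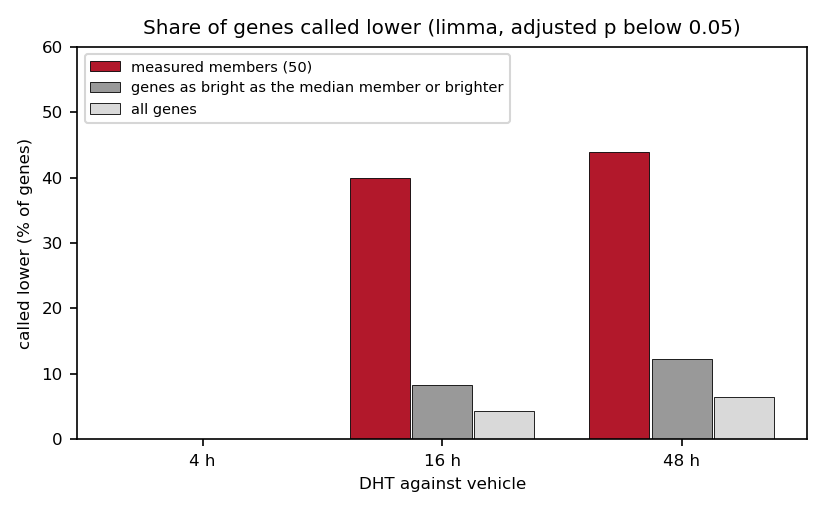
Bars give the percentage of genes called lower than vehicle (limma, adjusted p below 0.05) after 4 h, 16 h and 48 h of DHT, for the 50 measured members, for genes as bright as the median member or brighter, and for all genes read. The members' bars stand at 40.0% at 16 h and 44.0% at 48 h, against 4.3% and 6.38% of all genes, and at 0 at 4 h. The members were chosen with earlier results of these data known.

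The median log2 change of the 50 members was -0.04 at 4 h, -0.24 at 16 h and -0.32 at 48 h, while that of all genes was 0.00, 0.02 and 0.01. Both 16 h arrays lay below both vehicle arrays for 31 members (62.0%, against 21.1% of all genes), and both 48 h arrays did for 32 (64.0%, against 26.1%). At 4 h this held for 11 (22.0%, against 20.8%). Both DHT arrays lay above both vehicle arrays for 3 members at 4 h, 5 at 16 h and 9 at 48 h (6.0%, 10.0% and 18.0%, against 19.4%, 25.9% and 25.8% of all genes). Leaving out vehicle replicate 1 gave 10 members called lower at 16 h, leaving out the other vehicle array gave 13, and leaving out the 16 h replicate 2 gave 17. The share of all genes called lower at 16 h was also smaller without each of these arrays than with all 8. With the brightest probe set outside the _s and _x kinds, which match several transcripts, 8 of 41 members tested were called lower at 16 h. In that fit it was 3.33% of all genes. Cultures were measured in bulk, so fewer cells that express a gene and less RNA per cell cannot be told apart.

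**Figure D2:**
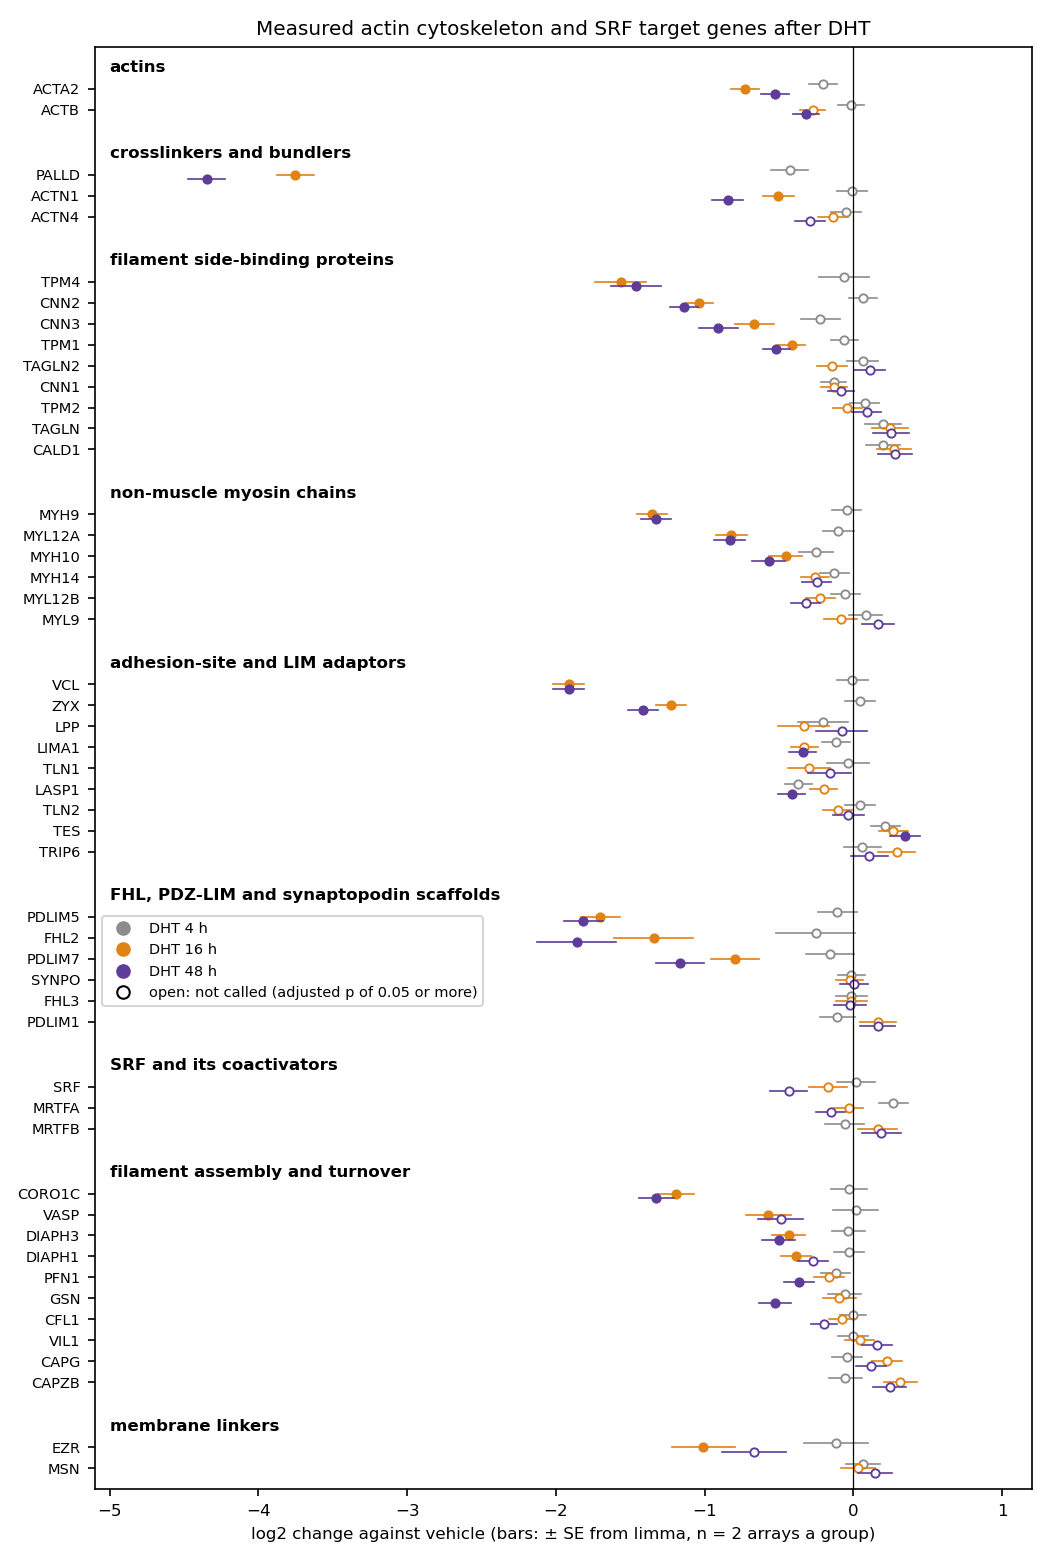
Each row is 1 measured gene, grouped by role, with its log2 change against vehicle on the x axis after 4 h (grey), 16 h (orange) and 48 h (purple) of DHT; bars are ± SE from limma (n = 2 arrays a group) and filled points were called. All filled points but TES at 48 h (0.35) lie left of 0, from PALLD (-4.35) to ACTB (-0.32) at 48 h, and no 4 h point is filled.

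Among the actins, ACTA2, the smooth muscle alpha-actin that is a classical SRF target, fell at both later times. Its probe set read 8.73 and 8.76 on the vehicle arrays, 8.61 and 8.47 at 4 h, 8.06 and 7.98 at 16 h, and 8.18 and 8.25 at 48 h. All 4 later arrays lay below the vehicle and 4 h arrays, with log2 changes of -0.73 (SE 0.09, limma adjusted p = 0.000797) at 16 h and -0.53 (SE 0.09, adjusted p = 0.00421) at 48 h. Both other ACTA2 probe sets were dimmer and did not show it, at 0.04 and 0.15 at 16 h. The mean of the 6 smooth muscle markers was between 7.87 and 8.10 on every array. Of these 6, 1 was called at 16 h: ACTG2, higher (0.37), a call lost without any 1 of the 8 arrays.

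ACTB and ACTG1 encode the beta- and gamma-actins of non-muscle cells, and their transcripts are so alike that 9 probe sets were annotated to both. The median of these 9 was 15.29 and 15.31 on the vehicle arrays, 15.32 and 15.33 at 4 h, 14.46 and 14.43 at 16 h, and 14.34 and 14.32 at 48 h. None of the 9 overlapped between early and late arrays, and all 9 were called lower in a limma fit of every probe set, by -0.96 to -0.80 at 16 h (adjusted p of 0.000965 to 0.00366) and by -1.10 to -0.91 at 48 h (0.000256 to 0.00116). The 3 probe sets annotated to ACTB alone moved less, by -0.30 to -0.26 at 16 h and -0.32 to -0.30 at 48 h, and none was called in that fit (adjusted p of 0.0838 to 0.116 at 48 h).

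The brightest ACTB probe set, tested over genes, read 15.53 and 15.52 with vehicle, 15.51 and 15.51 at 4 h, 15.24 and 15.26 at 16 h, and 15.22 and 15.19 at 48 h. It was called lower at 48 h alone (-0.32, SE 0.09, limma adjusted p = 0.0379; at 16 h -0.27, adjusted p = 0.0865), and the 48 h call was lost without any 1 of 6 arrays. Its later arrays lay below all 4 earlier ones. These signals sit at the top of the table, whose highest value was 15.57. The share of each actin in the joint probe sets was not measured.

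**Figure D3:**
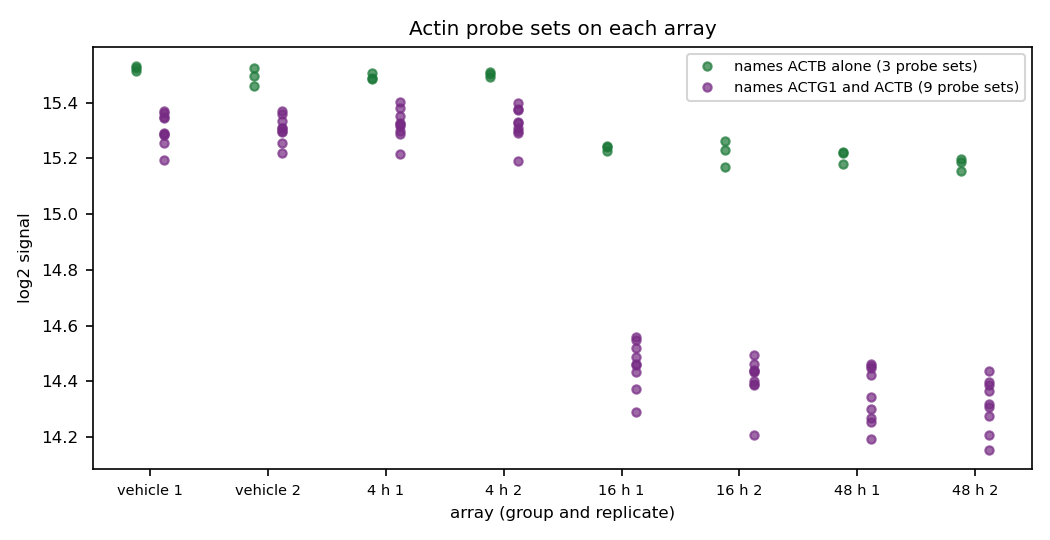
Log2 signal (y axis, which does not start at 0) of the actin probe sets on each of the 8 arrays (x axis), with 3 probe sets that name ACTB alone in green and 9 that name both ACTG1 and ACTB in purple. The purple points drop from a median of 15.29 to 15.33 on the vehicle and 4 h arrays to 14.32 to 14.46 on the later ones, and the green points from 15.49 to 15.52 to 15.19 to 15.24.

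The crosslinker PALLD (palladin), a scaffold that bundles actin filaments and recruits alpha-actinin and other proteins to stress fibres, fell furthest of all 19775 genes at 16 h and at 48 h. It read 11.98 and 11.85 with vehicle, 11.30 and 11.68 at 4 h, 8.23 and 8.10 at 16 h, and 7.51 and 7.63 at 48 h. The 16 h signal was 13.5-fold lower than vehicle (log2 -3.75, 95% interval -4.03 to -3.48, limma adjusted p = 3.05e-08) and the 48 h signal 20.4-fold lower (log2 -4.35, -4.62 to -4.07, adjusted p = 4.02e-09).

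PALLD also showed the lowest 4 h value of the 50 members. Both 4 h arrays lay below both vehicle arrays (log2 -0.43, SE 0.13), but this missed the threshold (unadjusted p = 0.00557, limma adjusted p = 0.377). From 16 h to 48 h the further difference of -0.60 also missed it (adjusted p = 0.059). At 16 h both other PALLD probe sets with clear signal changed by -3.70 and -3.10, while a dim one with a mean log2 signal of 4.82 read 0.01.

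ACTN1, the alpha-actinin of stress fibres and adhesions and a partner of palladin, fell by 0.51 at 16 h and 0.85 at 48 h (SE 0.10; limma adjusted p = 0.0126 and 0.000322). Its arrays read 12.30 and 12.32 with vehicle, 12.30 and 12.30 at 4 h, 11.67 and 11.94 at 16 h, and 11.43 and 11.50 at 48 h, with no overlap between early and late arrays. The 16 h call was lost without either vehicle array or without 16 h replicate 1 (highest adjusted p = 0.0822); the 48 h call held without each array in turn. Its close relative ACTN4 was not called, at -0.14 and -0.29.

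Of 9 measured proteins that bind along the sides of filaments, 4 were called lower at both times. TPM4, a low molecular weight tropomyosin, read 12.14 and 12.19 with vehicle, 11.97 and 12.23 at 4 h, 10.91 and 10.29 at 16 h, and 10.79 and 10.61 at 48 h. That is a 2.96-fold lower signal at 16 h (log2 -1.57, SE 0.17, limma adjusted p = 0.000239) and a 2.76-fold lower one at 48 h (log2 -1.46, adjusted p = 0.000217). The 16 h replicates were 0.62 apart, and without replicate 2 the change was -1.26. A pair of other TPM4 probe sets changed by -1.99 and -1.73 at 16 h, both called.

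TPM1, the tropomyosin that stabilises stress fibres, moved less. Its signal was 13.11 and 13.22 with vehicle, 13.07 and 13.13 at 4 h, 12.73 and 12.76 at 16 h, and 12.66 and 12.63 at 48 h. The late arrays lay below all early ones and the change was -0.42 at 16 h (limma adjusted p = 0.0171) and -0.52 at 48 h (adjusted p = 0.00352). Without the 16 h replicate 2 the 16 h value was -0.43 with an adjusted p of 0.0504, and 3 other single arrays also ended that call. The brightest TPM1 probe set outside the kinds that can match several transcripts read 0.03 at 48 h.

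CNN2 and CNN3, the calponins of non-muscle cells that bind actin and restrain myosin, fell as well. CNN2 read 11.66 and 11.53 with vehicle, 11.62 and 11.70 at 4 h, 10.59 and 10.52 at 16 h, and 10.49 and 10.42 at 48 h, so it was 2.05-fold and 2.20-fold lower (log2 -1.04 and -1.14, SE 0.09, limma adjusted p = 6.33e-05 and 1.62e-05). CNN3 read 12.79 and 12.41 with vehicle, 12.38 and 12.37 at 4 h, 12.07 and 11.79 at 16 h, and 11.70 and 11.69 at 48 h. Its vehicle arrays were wider apart, and its change was -0.67 at 16 h (SE 0.13, adjusted p = 0.0109) and -0.91 at 48 h (adjusted p = 0.0011). Without 16 h replicate 2 the 16 h change of CNN3 was -0.53 (adjusted p = 0.0735), and it was also lost without vehicle replicate 1.

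The other 5 members of this group were not called. CNN1, the smooth muscle calponin, had log2 changes of -0.13 and -0.08, TPM2 -0.04 and 0.09, CALD1 (caldesmon) 0.27 and 0.28, TAGLN (transgelin, another classical SRF target) 0.24 and 0.25, and TAGLN2, its broadly expressed relative, -0.14 and 0.11 at 16 h and 48 h. A dimmer TAGLN probe set was called higher at 48 h (0.79, limma adjusted p = 0.0478 over all probe sets). Of the classical smooth muscle SRF targets on the list, ACTA2 was called lower while CNN1 and TAGLN were not called. This difference between genes was not tested. The mean log2 signal of CNN1 was 6.33, below the 25th percentile of mean signals (7.13), and that of CALD1 was below it too. With no detection call, a missing call at such levels cannot show that expression held. Both other ACTA2 probe sets, which were dimmer, showed no fall.

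Non-muscle myosin II is the motor that contracts actin bundles, and 3 of its 6 measured chains were called lower at both times. MYH9, the heavy chain of myosin IIA, read 13.06 and 13.12 with vehicle, 13.01 and 13.09 at 4 h, 11.83 and 11.64 at 16 h, and 11.80 and 11.73 at 48 h. This was 2.56-fold lower at 16 h (log2 -1.35, SE 0.10, limma adjusted p = 1.27e-05) and 2.51-fold lower at 48 h (log2 -1.33, adjusted p = 6.92e-06). MYH10, the heavy chain of myosin IIB, read 9.49 and 9.32 with vehicle, 9.27 and 9.05 at 4 h, 8.85 and 9.05 at 16 h, and 8.83 and 8.85 at 48 h.

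MYH10 changes were -0.46 (limma adjusted p = 0.0326) and -0.57 (adjusted p = 0.00765) at 16 h and 48 h; its higher 16 h array was no lower than its lower 4 h array, and the 16 h call was lost without any 1 of 5 arrays. MYL12A, a regulatory light chain, read 11.30 and 11.29 with vehicle, 11.24 and 11.15 at 4 h, 10.39 and 10.56 at 16 h, and 10.37 and 10.56 at 48 h, with changes of -0.82 and -0.83 (SE 0.10, adjusted p = 0.000688 and 0.000374). A probe set shared by MYL12A and MYL12B changed by -0.45 and -0.50. The related light chain MYL12B on its own (-0.22 and -0.32), MYL9 (-0.09 and 0.16) and the heavy chain MYH14 (-0.26 and -0.25) were not called.

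Adhesion sites couple filaments to integrins, and their 9 measured adaptors moved unevenly. VCL (vinculin), which links talin and alpha-catenin to actin, fell to about the same level at both times. It read 12.81 and 13.07 with vehicle, 12.93 and 12.94 at 4 h, 11.04 and 11.01 at 16 h, and 10.97 and 11.08 at 48 h. The signal was 3.77-fold lower at 16 h (log2 -1.91, 95% interval -2.14 to -1.68, limma adjusted p = 1.03e-06) and 3.77-fold lower at 48 h (log2 -1.91, adjusted p = 7.08e-07). A second, dimmer VCL probe set with a mean log2 signal of 7.41 read -0.06 and -0.09.

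ZYX (zyxin), a LIM protein of adhesions and stress fibres that takes part in their repair, read 11.15 and 11.26 with vehicle, 11.26 and 11.24 at 4 h, 10.07 and 9.89 at 16 h, and 9.71 and 9.87 at 48 h. It was 2.34-fold lower at 16 h and 2.67-fold lower at 48 h (log2 -1.23 and -1.42, SE 0.10, limma adjusted p = 3.2e-05 and 5.64e-06). Its second probe set changed further, by -1.80 and -1.93. No late array of ZYX or VCL reached any early one.

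LASP1, a LIM and SH3 protein of the cell edge, and LIMA1, which bundles filaments and slows their turnover, were called at 48 h alone. The LIMA1 call was lost without any 1 of 6 arrays, and the LASP1 call without vehicle replicate 1 or 48 h replicate 1. In the fit of all probe sets 1 of the 2 other LIMA1 probe sets was called lower at 16 h (changes of -0.56 and -0.33). LASP1 read 12.54 and 12.49 with vehicle, 12.13 and 12.16 at 4 h, 12.25 and 12.38 at 16 h, and 12.06 and 12.14 at 48 h. It was already below vehicle at 4 h on both arrays (-0.37, unadjusted p = 0.00192, limma adjusted p = 0.241), and it was -0.20 at 16 h and -0.42 at 48 h (adjusted p = 0.0144). LIMA1 read 10.74 and 10.61 with vehicle, 10.61 and 10.51 at 4 h, 10.35 and 10.35 at 16 h, and 10.33 and 10.35 at 48 h (48 h -0.34, adjusted p = 0.0393; 16 h -0.33, adjusted p = 0.0555).

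TES (testin), a LIM protein of adhesions that binds zyxin, was the only member called higher. It read 10.30 and 10.46 with vehicle, 10.64 and 10.55 at 4 h, 10.58 and 10.71 at 16 h, and 10.72 and 10.74 at 48 h. Every DHT array lay above both vehicle arrays, and the 48 h change was 0.35 (SE 0.10, limma adjusted p = 0.0483). That call was lost without any 1 of 6 arrays, and TES was not called in the F test over the 3 times. The talins TLN1 (-0.30 and -0.16) and TLN2 (-0.10 and -0.03), which activate integrins, and the zyxin relatives LPP (-0.34 and -0.08) and TRIP6 (0.29 and 0.11) were not called.

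Of 6 measured scaffolds of the FHL, PDZ-LIM and synaptopodin type, 3 were called lower at both times. PDLIM5, which joins alpha-actinin to signalling kinases, read 11.65 and 11.42 with vehicle, 11.41 and 11.44 at 4 h, 9.69 and 9.97 at 16 h, and 9.56 and 9.88 at 48 h. Its signal was 3.25-fold lower at 16 h and 3.52-fold lower at 48 h (log2 -1.70 and -1.82, SE 0.13, limma adjusted p = 2.21e-05 and 6.2e-06), with no overlap of early and late arrays. At 16 h 4 other PDLIM5 probe sets, all with a mean log2 signal above 8, changed by -2.45, -2.43, -1.96 and -1.48.

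FHL2, a LIM-only cofactor that is itself an SRF target and also binds the androgen receptor, varied more between replicates. It read 8.41 and 8.17 with vehicle, 8.42 and 7.66 at 4 h, 6.82 and 7.08 at 16 h, and 6.01 and 6.85 at 48 h. The changes of -1.34 (SE 0.27, limma adjusted p = 0.0108) and -1.86 (SE 0.27, adjusted p = 0.000981) put it at 2.54-fold and 3.63-fold lower, and the 16 h call was lost without vehicle replicate 1 (adjusted p = 0.105).

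PDLIM7 (enigma), which binds tropomyosin, read 10.31 and 10.09 with vehicle, 10.00 and 10.09 at 4 h, 9.29 and 9.52 at 16 h, and 9.31 and 8.75 at 48 h. It changed by -0.79 (SE 0.16, limma adjusted p = 0.0125) and -1.17 (adjusted p = 0.000794), and the arrays of the late groups lay below all early ones. PDLIM7 probe sets disagreed: another with a mean log2 signal of 8.89 read 0.21 at 16 h and 0.13 at 48 h. FHL3 (-0.01 and -0.02), PDLIM1 (0.16 and 0.16) and SYNPO (-0.03 and 0.00) were not called.

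SRF and its coactivators were not called at any time. SRF read 9.07 and 9.03 with vehicle, 8.92 and 9.22 at 4 h, 8.80 and 8.95 at 16 h, and 8.75 and 8.48 at 48 h. Its change was -0.17 at 16 h (limma adjusted p = 0.508) and -0.44 at 48 h (95% interval -0.71 to -0.16, unadjusted p = 0.00532, adjusted p = 0.054), where both arrays lay below both vehicle arrays. The other SRF probe set read -0.40 and -0.38, neither called.

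MRTFA read 8.88 and 9.01 with vehicle, 9.27 and 9.15 at 4 h, 8.95 and 8.87 at 16 h, and 8.74 and 8.85 at 48 h. Its 4 h arrays lay above both vehicle arrays (0.27, unadjusted p = 0.0187, limma adjusted p = 0.521) and its later changes were -0.03 and -0.15. MRTFB read 10.39 and 10.38 with vehicle, 10.33 and 10.33 at 4 h, 10.36 and 10.74 at 16 h, and 10.43 and 10.72 at 48 h, with changes of 0.16 and 0.19. Signals of transcripts carry no information on where these coactivators lie in the cell.

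Filament assembly and turnover was covered by 10 measured genes, of which 4 were called lower at each later time. CORO1C, a coronin that works with cofilin and Arp2/3 in filament turnover, read 11.03 and 10.70 with vehicle, 10.83 and 10.83 at 4 h, 9.78 and 9.55 at 16 h, and 9.56 and 9.52 at 48 h. It was 2.29-fold and 2.50-fold lower (log2 -1.19 and -1.32, SE 0.12, limma adjusted p = 0.000149 and 3.5e-05), with no overlap of early and late arrays, and its second probe set changed by -1.26 and -1.38.

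The formins DIAPH1 and DIAPH3 extend unbranched filaments. DIAPH3 read 9.87 and 9.91 with vehicle, 9.93 and 9.78 at 4 h, 9.31 and 9.61 at 16 h, and 9.39 and 9.39 at 48 h (-0.44 and -0.50, limma adjusted p = 0.0396 and 0.0149). DIAPH1 read 10.85 and 11.00 with vehicle, 10.90 and 10.89 at 4 h, 10.43 and 10.64 at 16 h, and 10.67 and 10.64 at 48 h. It was called at 16 h (-0.39, adjusted p = 0.0426) and not at 48 h (-0.27, adjusted p = 0.131). The 16 h calls of both formins were lost without any 1 of 7 arrays, although their late arrays lay below every early one. The 48 h call of DIAPH3 was lost without any 1 of 4 arrays.

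VASP, which promotes elongation at filament ends, read 11.17 and 11.01 with vehicle, 11.10 and 11.12 at 4 h, 10.80 and 10.24 at 16 h, and 10.59 and 10.62 at 48 h. Its 16 h change of -0.57 (limma adjusted p = 0.0435) rested on replicate 2: without that array it was -0.29 (adjusted p = 0.214). At 48 h it was -0.49, not called (adjusted p = 0.0669).

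GSN (gelsolin), which severs and caps filaments, was called at 48 h alone. It read 8.76 and 8.76 with vehicle, 8.73 and 8.67 at 4 h, 8.60 and 8.73 at 16 h, and 8.38 and 8.09 at 48 h (-0.53, SE 0.11, limma adjusted p = 0.0104). Its 16 h arrays overlapped the 4 h arrays and its 48 h arrays lay below all others, and another GSN probe set read 0.04. The GSN call was lost without either vehicle array or without 48 h replicate 2. PFN1 (profilin), which supplies monomers to growing filaments, read 13.63 and 13.45 with vehicle, 13.38 and 13.46 at 4 h, 13.30 and 13.45 at 16 h, and 13.21 and 13.14 at 48 h (-0.37, adjusted p = 0.0424).

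The PFN1 call was lost without any 1 of 5 arrays. CFL1 (cofilin), the severing protein of rapid turnover, was at -0.08 and -0.20, and the capping proteins CAPZB (0.32 and 0.24) and CAPG (0.22 and 0.12) and the microvillar VIL1 (villin, 0.04 and 0.16) were not called either. Of the ERM proteins, which tie filaments to the membrane, EZR (ezrin) read 12.26 and 12.13 with vehicle, 12.00 and 12.15 at 4 h, 11.63 and 10.74 at 16 h, and 11.47 and 11.58 at 48 h.

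EZR had the widest gap of the 50 genes between 16 h replicates, 0.89. It was called at 16 h (-1.01, SE 0.21, limma adjusted p = 0.0148) and not at 48 h (-0.67, adjusted p = 0.0773), and its later arrays lay below all earlier ones. Without 16 h replicate 2 the 16 h change of EZR was -0.56, and the 16 h call was lost without either vehicle array. Another EZR probe set of similar design was called at both times in the fit of all probe sets (-0.59 and -0.65). MSN (moesin) was not called (0.03 and 0.14).

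**Figure D4:**
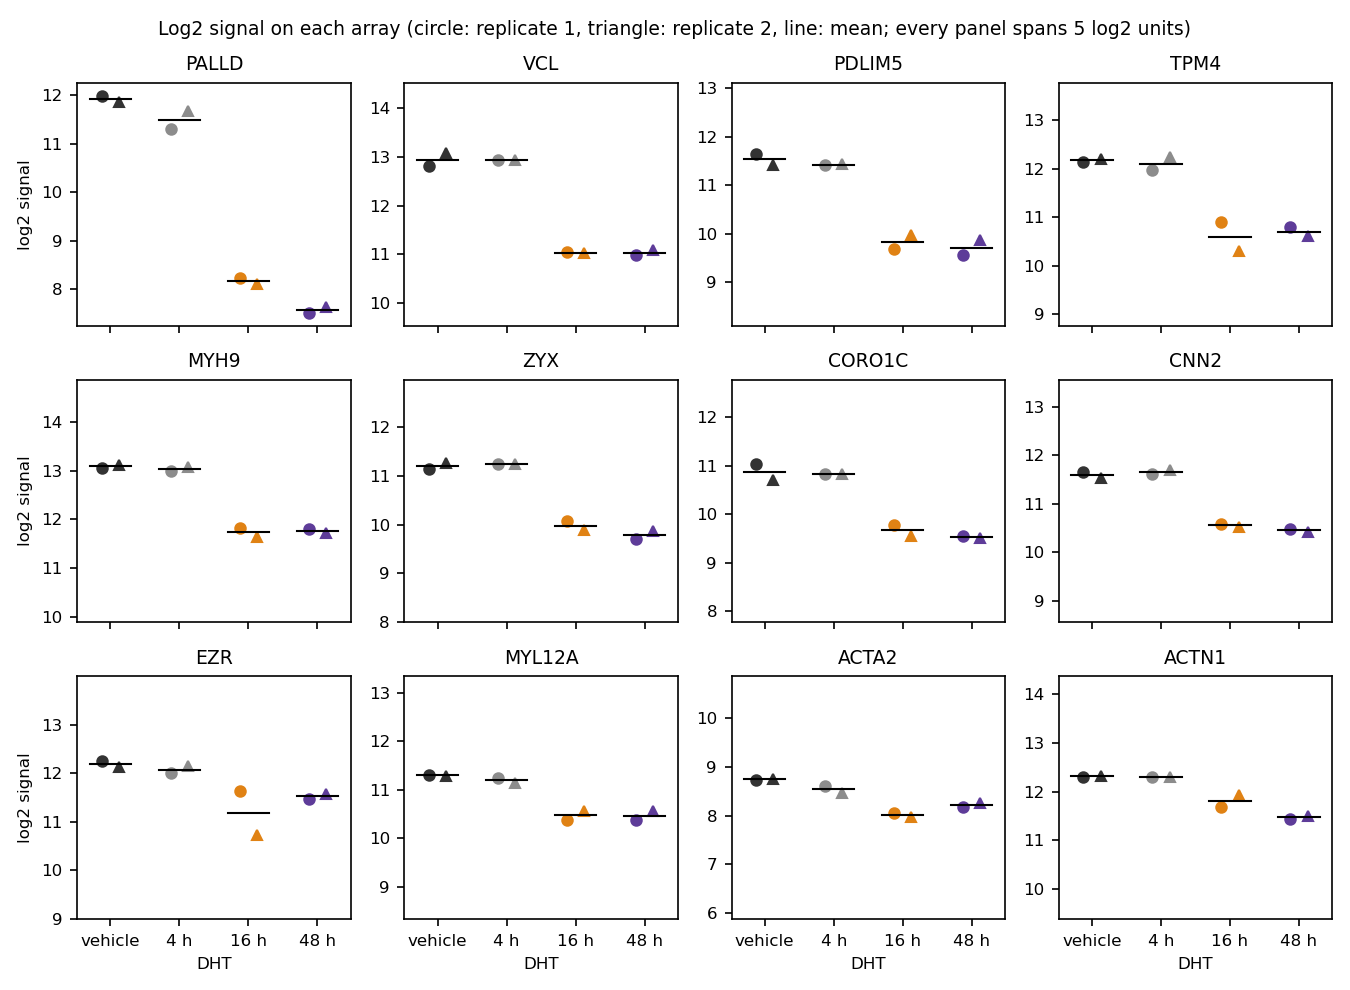
Log2 signal on every array for the 12 genes called lower at 16 h than at 4 h, 1 panel a gene; the x axis gives the group, circles are replicate 1, triangles replicate 2, lines the mean of 2 arrays, and every panel spans 5 log2 units. In each panel the 16 h and 48 h points lie below the vehicle and 4 h points, by most in PALLD (11.98 and 11.85 with vehicle, 7.51 and 7.63 at 48 h).

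The timing was tested directly between DHT groups. From 4 h to 16 h 12 of 50 members were called lower and none higher (limma adjusted p below 0.05; 1.77% of all genes were called lower and 1.28% higher, and 4.15% of genes as bright as the median member or brighter were called lower). They were PALLD (-3.32), VCL (-1.90), PDLIM5 (-1.59), TPM4 (-1.50), MYH9 (-1.31), ZYX (-1.27), CORO1C (-1.16), CNN2 (-1.10), EZR (-0.89), MYL12A (-0.72), ACTA2 (-0.53) and ACTN1 (-0.50), and all 12 were also called lower than vehicle at 16 h. From 16 h to 48 h no member was called (0.48% of all genes lower and 0.349% higher), and 7 had an unadjusted p below 0.05. A missing call does not show that levels stayed the same: the 95% interval of the 48 h minus 16 h difference ran from -0.87 to -0.32 for PALLD and from -0.57 to -0.11 for ACTN1.

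Seen over both late times, 17 members were called lower at 16 h and at 48 h, 3 at 16 h alone (DIAPH1, EZR and VASP), 5 at 48 h alone (ACTB, GSN, LASP1, LIMA1 and PFN1), and 24 at no time in either direction. These splits follow the threshold and were not tested as differences between times. An F test over the 3 comparisons with vehicle called 21 members (8.9% of all genes). At 16 h the calls of 10 genes held without each of the 8 arrays in turn: ACTA2, CNN2, CORO1C, MYH9, MYL12A, PALLD, PDLIM5, TPM4, VCL and ZYX. Of the 23 calls at 48 h 14 did, which adds ACTN1, CNN3, FHL2, PDLIM7 and TPM1 to those genes except ACTA2.

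The array with the high 3′ minus 5′ control difference touched few of the 16 h calls. Without it, CNN3, TPM1 and VASP were no longer called, while the other 17 were. PALLD was then at -3.69, VCL at -1.90, PDLIM5 at -1.84, FHL2 at -1.47, TPM4 and MYH9 at -1.26, ZYX at -1.14 and CORO1C at -1.08, and CNN2 had a limma adjusted p of 0.0006. MYL12A and PDLIM7 were at -0.91, ACTA2 at -0.69, ACTN1 at -0.64, DIAPH3 at -0.59, EZR and MYH10 at -0.56 and DIAPH1 at -0.49. The 9 joint ACTG1 and ACTB probe sets changed by -0.93 to -0.79 on replicate 1 alone. ACTN1, PDLIM5 and the formins had lower signals on the other 16 h array. The part of RNA quality in the remaining values was tested as a covariate in the fit. There 19 members were called lower at 16 h and 25 at 48 h, against 4.54% and 8.48% of all genes.

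**Figure D5:**
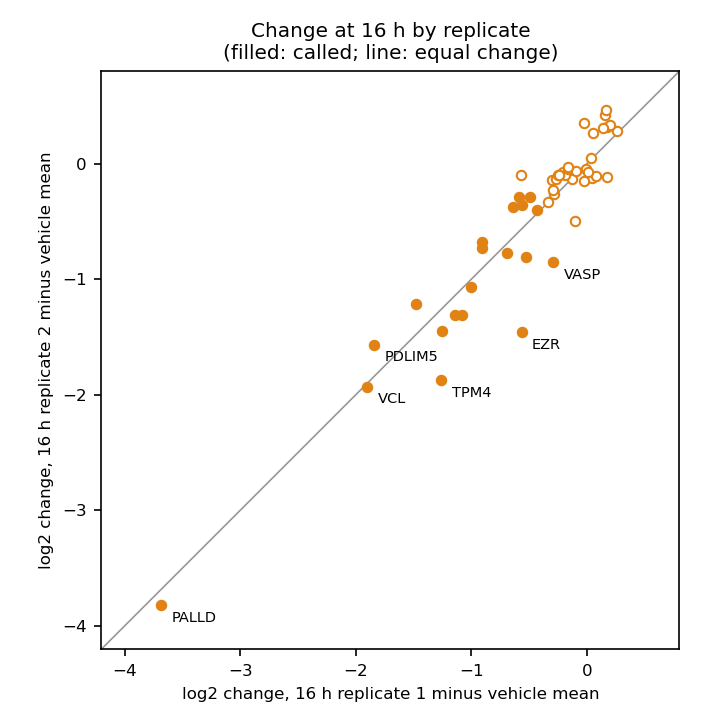
Each point is 1 measured gene, with its log2 change at 16 h from replicate 1 against the vehicle mean on the x axis and from replicate 2 on the y axis; filled points were called with both arrays and the line marks equal change. Most points lie near the line, and EZR (-0.56 and -1.46), TPM4 (-1.26 and -1.87) and VASP (-0.29 and -0.85) lie below it.

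Members with several probe sets gave a check within the arrays. At 16 h 16 called members had another probe set, and for 10 of them another one was also called lower in the fit of all probe sets; 38 of the 49 other probe sets had a log2 change below 0 and 15 were called. At 48 h it was 11 of 17 members, with 38 of 52 other probe sets below 0 and 18 called. LPP, not called by its brightest probe set, had another one called lower at 16 h (-0.47, limma adjusted p = 0.0435).

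Other genes of the pathway were read from 4 lists that hold no member, with 77 of 82 genes measured. These lists too were chosen with earlier results of these data known. None was called at 4 h, 15 were called lower and 2 higher at 16 h, and 17 lower and 0 higher at 48 h. Over all genes 4.3% were called lower and 2.55% higher at 16 h, and 6.38% and 3.13% at 48 h. Of genes as bright as the median member or brighter, 8.26% were called lower at 16 h and 12.3% at 48 h. Without the 16 h replicate 2 the 16 h counts were 11 lower and 0 higher (all genes: 3.7% and 1.25%). The median log2 change was -0.08 and -0.12 at the later times. Of 19 further targets of the MRTF type, 7 were called lower at 16 h and 7 at 48 h, with 1 higher at 16 h; without the 16 h replicate 2 it was 6 lower and 0 higher. THBS1 (thrombospondin, a matrix protein) changed by -1.79 and -1.75 (limma adjusted p = 3.2e-05 and 2.05e-05), AMOTL2 (a junctional angiomotin) by -0.67 and -1.45, CCN1 (a matricellular protein) by -0.54 and -0.82, and ITGB1 (the beta-1 integrin chain) by -0.67 and -0.57. Without the 16 h replicate 2 the 16 h values were -1.67, -0.80, -0.66 and -0.64, all called; the 16 h calls of AMOTL2 and CCN1 were lost without vehicle replicate 1, and that of CCN1 also without the 16 h replicate 1.

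Of 10 targets of the ternary complex factor type, 1 was called lower at 16 h and 3 at 48 h (all genes: 4.3% and 6.38%). EGR1, an immediate early transcription factor, read 9.96 and 9.77 with vehicle, 9.89 and 10.09 at 4 h, 10.01 and 10.14 at 16 h, and 7.87 and 7.27 at 48 h, so that its 48 h change was -2.29 (SE 0.17, limma adjusted p = 6.01e-06) while at 16 h it was 0.21. IER3 changed by -0.68 and -0.99 and JUNB by -0.10 (not called) and -0.39; the JUNB call was lost without any 1 of 4 arrays, and IER3 at 16 h was -0.81 without replicate 2. EGR1 thus read below its vehicle arrays on the 48 h pair alone.

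Branched filaments are nucleated by the Arp2/3 complex and its WAVE activators. Of 15 measured, 2 were called, both lower at both times: ACTR3 (-0.72 and -0.82) and ARPC5 (-0.42 and -0.35), subunits of the complex itself. Over all genes 4.3% were called lower at 16 h and 6.38% at 48 h. Among genes as bright as the median member or brighter it was 8.26% and 12.3%. Without the 16 h replicate 2 ACTR3 was at -0.74 and called and ARPC5 at -0.40 and not called (limma adjusted p = 0.0619), and the 48 h call of ARPC5 was lost without any 1 of 6 arrays.

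Of 33 other filament regulators, 5 were called lower at each time and 1 higher at 16 h. Over all genes 4.3% were called lower at 16 h and 6.38% at 48 h, and 2.55% higher at 16 h. FERMT2 (kindlin-2), which activates integrins together with talin, changed by -1.40 and -1.72 (limma adjusted p = 3.2e-05 and 3.21e-06). ANLN (anillin), which organises the contractile ring in dividing cells, changed by -1.39 and -0.90, DAAM1, a formin, by -0.86 and -0.54 (the latter not called), and PLS1, a bundling fimbrin, by -0.45 and -0.70. Without the 16 h replicate 2, 3 of the 33 were called lower at 16 h and 0 higher: FERMT2 was at -1.54 and ANLN at -1.13, while DAAM1 was at -0.49 (limma adjusted p = 0.0565) and PLS1 at -0.39 (adjusted p = 0.195) and neither was called. The 16 h call of DAAM1 was also lost without either vehicle array and that of PLS1 without any 1 of 6 arrays, and the 48 h call of PLS1 without the 48 h replicate 1. Over the 4 lists 15 of 77 genes were called lower at 16 h, against 20 of 50 members, a difference that was not tested.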

How the data were processed

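Total RNA of 8 MDA-MB-453 cultures was hybridised to Affymetrix arrays, per the labels; the platform annotation is that of HG-U133 Plus 2.0. The deposited values are log2 signals that the authors made with RMA, a method that corrects background, equalises arrays by quantiles and summarises probes, per the submitters' processing notes (version: not given in the sources used here). Arrays have no sequencing depth, and 2 arrays a group limit the precision. Of 54675 probe sets, 62 controls were set aside, 41091 had 1 gene symbol in the platform annotation, 1801 several and 11721 none. The brightest probe set with 1 symbol stood for each of 19775 genes. limma 3.58.1 in R 4.3.3 fitted 4 group means to all 8 arrays, and moderated tests were adjusted by Benjamini-Hochberg over all genes; a call is an adjusted p below 0.05. The fit was tested on simulated data. With no statement of separate cultures, p-values measure the spread between these arrays. The members and all gene lists were chosen with earlier results of these data known. Every member may be named, with values on each array for those called against vehicle and for SRF, MRTFA, MRTFB and the actins; of the pathway lists, up to 4 called genes with the largest change. Alternatives covered probe set choice, a filter at a mean log2 signal of 6, normalization, variance model, array weights, RNA quality, a replicate block and each array left out. Leaving out arrays for the pathway genes and the joint actin probe sets was chosen after seeing the data. Some listed marker and pathway genes were not analysed here, and 1 further pathway list is not reported here.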

Additional observations from a re-analysis of the deposited data

Results flagged for a closer look

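The response differed between 4 h and 16 h of DHT in 12 of the 50 genes, by limma's test of the difference itself (adjusted p below 0.05 over all genes). Over all genes 1.77% were called lower and 1.28% higher, and 4.15% of genes as bright as the median member or brighter were called lower. The members were chosen with earlier results of these data known. The 16 h minus 4 h log2 differences were -3.32 for PALLD, -1.90 for VCL, -1.59 for PDLIM5, -1.50 for TPM4, -1.31 for MYH9, -1.27 for ZYX, -1.16 for CORO1C, -1.10 for CNN2, -0.89 for EZR, -0.72 for MYL12A, -0.53 for ACTA2 and -0.50 for ACTN1. The calls of 8 of these (PALLD, VCL, PDLIM5, TPM4, MYH9, ZYX, CORO1C and CNN2) held without each array in turn; those of EZR, MYL12A, ACTA2 and ACTN1 did not.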

How the results depend on the processing

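With the brightest probe set outside the _s and _x kinds, which match several transcripts, 41 members could be tested. Of these, 8 were called lower at 16 h (3.33% of all genes in that fit), 10 at 48 h (5.03%) and 6 from 4 h to 16 h (1.19%). At any time 10 were called (6.66%), and 0 were called higher at 48 h (2.35%). The calls that changed sign there were PALLD (0.0123 at 16 h and 0.0428 from 4 h to 16 h, from its dim probe set), PDLIM7 (0.21 and 0.13 at 16 h and 48 h), DIAPH1 (0.0399 at 16 h), GSN (0.0415 at 48 h) and TPM1 (0.0288 at 48 h). With the median of all probe sets of a gene, ACTA2 read 0.0396 at 16 h, 0.0091 at 48 h and 0.16 from 4 h to 16 h, and 0 members were called higher at 48 h. An intensity trend in the variance model gave 1 member called lower from 16 h to 48 h (0.668% of all genes). Equal medians, a second quantile normalization, array weights, the dim filter and the RNA quality covariate left 17 to 21 members called lower at 16 h and 20 to 25 at 48 h. Over all genes these settings called 3.63% to 5.03% lower at 16 h and 5.86% to 8.48% at 48 h.

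Leaving out each array in turn left 1 array in a group. At 16 h fewer members were called lower in each of these fits than with all 8 arrays. In most of them a smaller share of all genes was called lower too. At 48 h the number of members called lower rose or fell with the array left out, and so did the share of all genes. At 4 h no member was called in either direction. Deviations from group means correlated between same-numbered arrays by -0.24 to 0.20. With 2 arrays a group this cannot show whether same-numbered cultures were handled together, and no label says so. With the replicate number as a block, 19 members were called lower at 16 h (4.06% of all genes) and 19 at 48 h (5.91%). From 4 h to 16 h 12 were called lower (1.65%). At 48 h 0 were called higher (2.84%), where TES had a limma adjusted p of 0.0625. DIAPH3 at 16 h and ACTB, LIMA1 and PFN1 at 48 h also missed the threshold. The cause of these changes was not tested.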

Other observations

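Luminal marker genes moved in both directions beside the actin genes. Of 10 measured, 2 were called higher and 2 lower at 16 h (all genes: 2.55% and 4.3%). At 48 h 1 was called higher and 4 lower (all genes: 3.13% and 6.38%). At each of these times 8 of the 10 had a log2 change below 0. CDH1 was called lower at both times and SPDEF higher at 16 h. KRT19, a simple epithelial keratin, was called higher at 16 h and 48 h (0.58 and 0.68, limma adjusted p = 0.00295 and 0.000679), and ERBB2, a receptor tyrosine kinase, lower (-0.47 and -0.65, adjusted p = 0.00935 and 0.000929). GATA3 and FOXA1, transcription factors of luminal cells, were called lower at 48 h (-0.85 and -0.72, adjusted p = 0.000126 and 0.000638). FOXA1 read 12.36 and 12.51 with vehicle, 11.91 and 11.92 at 4 h, 12.23 and 12.25 at 16 h, and 11.64 and 11.78 at 48 h, so it was lower than vehicle on all 6 DHT arrays, with its 16 h arrays above its 4 h arrays. KRT5, a basal keratin, was called higher at 48 h (0.51, limma adjusted p = 0.00666), from 8.13 and 8.18 with vehicle to 8.71 and 8.61. It was the only 1 of 4 measured basal markers called, and 2 of the 4 had a log2 change below 0 at 48 h.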
